A study of Mus musculus with 2 samples.

Results

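Gas6, Pros1 and the TAM receptor genes Axl, Tyro3 and Mertk were followed in LM8 mouse osteosarcoma cells. These 5 genes, of 12393 on the array, were taken by symbol as the ligands and receptors of 1 signalling system, and every probe set annotated to a single one of these symbols was used, 7 in all. They were chosen by their place in this system and with the log2 ratios of this same contrast, Gas6 above all, already known, so the values that follow are a description and carry no test. The study compared a pair of stably transfected clones by 1 Affymetrix mouse array each. LM8 is a cell line of mouse osteosarcoma that spreads to the lung. The hPHD4 clone carried a human PHD4 cDNA in pcDNA3.1, and the control clone carried the vector with no insert. Both were grown under 0.5 mg/ml G418, so the vector and the drug were common to the groups. Each group is 1 clone, and 0 probe sets of this mouse array were assigned to P4htm, the mouse gene for PHD4, alone, so the labels were not checked against the introduced gene.

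The TAM receptors (Tyro3, Axl and Mertk) are receptor tyrosine kinases that sense phosphatidylserine on the surface of dying cells and membranes through bridging ligands. Gas6 and protein S, the product of Pros1, are those ligands: each has an amino-terminal Gla domain, carboxylated with the help of vitamin K, that binds phosphatidylserine, and a carboxy-terminal part that binds the receptors. Gas6 binds Axl with the highest affinity, whereas protein S acts on Tyro3 and Mertk and is also a cofactor of activated protein C in blood clotting. The system is known for the clearance of apoptotic cells and for damping of innate immunity in macrophages, and Axl signalling is known to favour survival and invasion of tumour cells.

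The sequence just upstream of the annotated start is shown for the members that lay at least 1.5-fold apart between the clones, Gas6, Pros1 and Axl. RefSeq promoter windows of build GRCm38.p6 were read for all 5 members, and the 250 bases before the start were searched. Because PHD4 belongs to an enzyme family that acts on hypoxia-inducible factor (HIF), the core of its binding motif, ACGTG or GCGTG, was searched on both strands, and so was the GC box GGGCGG, which Sp1 family factors bind. ACGTG overlaps its own reverse complement where CACGTG stands, which then counts as a match on each strand. Capitals mark every match to any of these motifs, and all matches shown are GC boxes. The windows lie at chr8:13494536-13494785 on the minus strand for Gas6, chr16:62854057-62854306 on the plus strand for Pros1 and chr7:25788734-25788983 on the minus strand for Axl. Each reads 5′ to 3′ toward the start.
Gas6: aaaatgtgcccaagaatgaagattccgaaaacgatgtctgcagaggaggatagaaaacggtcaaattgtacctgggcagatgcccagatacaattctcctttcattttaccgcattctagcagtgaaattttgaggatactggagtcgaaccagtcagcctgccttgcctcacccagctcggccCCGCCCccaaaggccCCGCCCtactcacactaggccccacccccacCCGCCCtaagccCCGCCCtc
Pros1: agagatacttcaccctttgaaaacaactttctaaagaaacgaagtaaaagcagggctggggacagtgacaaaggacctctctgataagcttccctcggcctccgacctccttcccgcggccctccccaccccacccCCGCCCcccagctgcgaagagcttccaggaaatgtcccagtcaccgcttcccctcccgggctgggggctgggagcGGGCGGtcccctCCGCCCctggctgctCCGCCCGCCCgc
Axl: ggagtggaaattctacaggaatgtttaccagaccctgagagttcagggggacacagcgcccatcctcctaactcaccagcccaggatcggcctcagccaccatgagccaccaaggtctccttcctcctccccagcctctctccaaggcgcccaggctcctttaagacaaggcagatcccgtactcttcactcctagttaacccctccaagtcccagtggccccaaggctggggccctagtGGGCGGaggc
The HIF core was found at 0 places in each of these windows. Among the members the Tyro3 window alone held it, with 1 match to GCGTG, 189 bases before the start, and the Mertk window had 0. Of 32851 promoter windows of the same length, 38.6% held ACGTG or GCGTG. The GC box was present in the windows of all 5 members. It occurred 4 times for Gas6, 5 times for Pros1, 1 time for Axl and 3 times each for Tyro3 and Mertk. The Pros1 matches that begin 12 and 8 bases before the start overlap and share a stretch of capitals. Overlapping matches were counted separately in all windows. At least 1 GC box stood in 32.7% of all windows, at least 4 stood in 4.09% and at least 5 in 1.93%. A match describes letters in these windows and shows no binding.

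Signals are log2 MAS5 values, on which a difference of 1 is a factor of 2. A floor was set on each array at its 40th percentile, a log2 signal of 6.08 for the control clone and 6.34 for the hPHD4 clone, and a probe set above it on both arrays counted as measured. In this way 7452 genes were measured, with a median log2 ratio, hPHD4 clone over control clone, of 0.03. With 1 array per clone there was no replicate. In place of replicate error, each ratio is set against an SD that pools the disagreement among probe sets sharing a gene. The measured genes were divided equally by mean signal into 3 groups, dim, middle and bright. The SD was 0.40 in the dim group, 0.37 in the middle group and 0.28 in the bright group, and it leaves out differences between cultures, clones and labelling reactions. LM8 carried the osteoblast markers in both clones: 7 of 8 were above the floor on each array, among them Sp7, a transcription factor of osteoblasts, at linear signals of 3039 and 2588. Wherever a pair of linear signals is given without further words, the hPHD4 clone comes first.

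Of the 5 members, 4 were measured in both clones. The 2 ligands lay on opposite sides: Gas6 was about an order of magnitude higher in the hPHD4 clone, and Pros1 was lower. The receptors Axl and Tyro3 were higher in the hPHD4 clone by much smaller amounts, and Mertk was under the floor on both arrays. Of the measured members, 1 lay 2-fold or more above the control clone and 1 lay 2-fold or more below it. Over all measured genes, 1.89% lay as far above and 0.98% as far below. Because the members were chosen in view of these ratios, nothing is read from those shares.

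**Figure D1:**
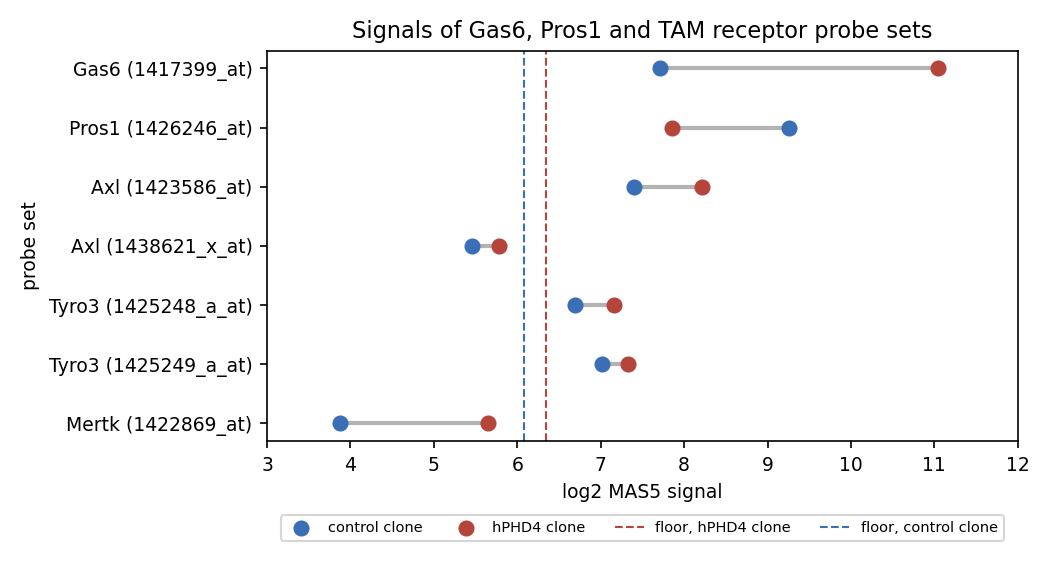
Log2 MAS5 signal (x axis) of each of the 7 probe sets of Gas6, Pros1, Axl, Tyro3 and Mertk (y axis) in the control clone (blue) and the hPHD4 clone (red), 1 array each; dashed lines mark the floor of each array. The points of Gas6 lie at 7.71 and 11.04 and those of Pros1 at 9.26 and 7.86, in the opposite order, while Mertk and 1 of the 2 Axl probe sets lie under both floors.

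Gas6, the ligand named for its induction on growth arrest of fibroblasts, was read by 1 probe set, 1417399_at. Its log2 signal was 7.71 in the control clone and 11.04 in the hPHD4 clone, which on the linear scale is 209.6 and 2110.1. The control value lay 1.63 above the floor on the log2 scale, at percentile 58.8 of that array, and the hPHD4 value stood at percentile 92.2 of its array, so Gas6 was above the floor in both clones. The log2 ratio was 3.33, a 10.1-fold difference, against an SD of 0.37 for genes of its brightness. Of the 7452 measured genes, 1 had a higher ratio. In RNA from whole cultures, fewer cells that express a gene and less RNA per cell cannot be told apart.

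Pros1, encoding protein S, was likewise read by 1 probe set, 1426246_at. Its log2 signal was 9.26 in the control clone and 7.86 in the hPHD4 clone, or 614.4 and 232.3 on the linear scale. Both values were well clear of the floor, by 3.18 and 1.52 on the log2 scale. The log2 ratio was -1.40, so that the signal was 2.64-fold lower in the hPHD4 clone, and the SD for genes of this brightness was 0.37. A lower ratio was held by 29 of the measured genes. The log2 ratios of the 2 ligands were thus 4.73 apart. Gas6 and Pros1 each rest on a single probe set, so neither has a check within its own gene.

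**Figure D2:**
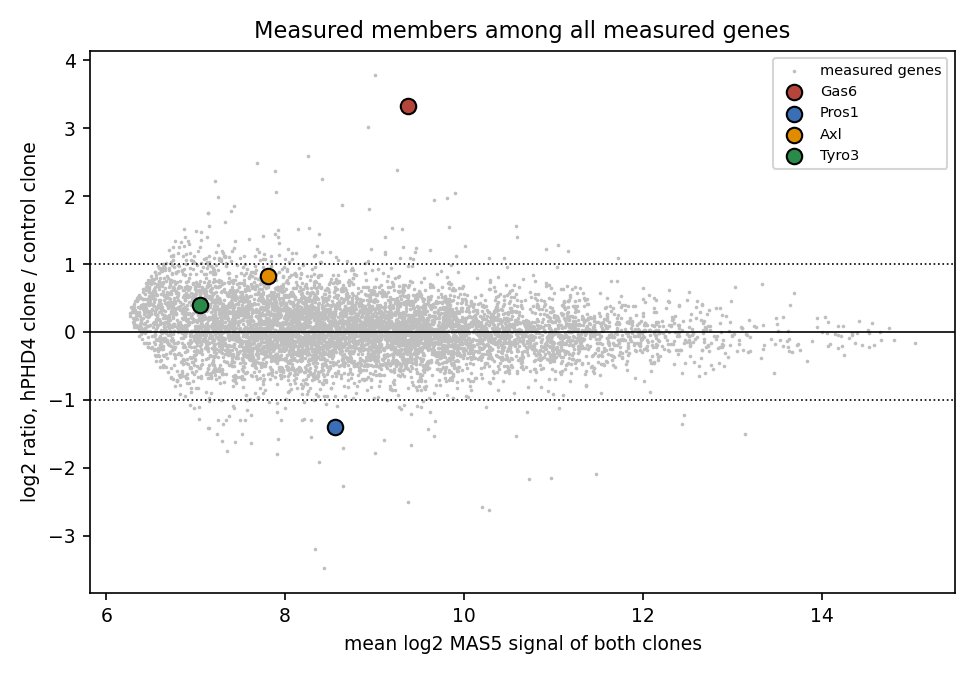
Log2 ratio, hPHD4 clone over control clone (y axis), against the mean log2 MAS5 signal of both clones (x axis) for the 7452 measured genes (grey) with the 4 measured members in colour; dotted lines mark 2-fold. Gas6 at 3.33 stands above nearly the whole cloud and Pros1 at -1.40 below most of it, while Axl at 0.82 and Tyro3 at 0.39 lie within it.

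Axl, the receptor with the highest affinity for Gas6, had 2 probe sets. The probe set 1423586_at gave log2 signals of 7.40 in the control clone and 8.22 in the hPHD4 clone, linear 168.4 and 297.8. The log2 ratio was 0.82, or 1.77-fold higher in the hPHD4 clone, against an SD of 0.40 in the dim group. In that group 16.3% of genes reached 1.5-fold higher, and 7.09% had a ratio as high as that of Axl or higher. The probe set 1438621_x_at, of a type whose probes can match other transcripts as well, was under the floor on both arrays at log2 signals of 5.45 and 5.78, and no ratio is given for it. The measured genes of chromosome 7, where Axl lies, had a median log2 ratio of 0.19, above that of all measured genes.

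Tyro3, a receptor best known from the nervous system, was measured by both of its probe sets. The probe set 1425248_a_at gave log2 signals of 6.69 in the control clone and 7.16 in the hPHD4 clone. The probe set 1425249_a_at gave 7.01 and 7.33. Their log2 ratios of 0.47 and 0.31 had the same sign and an SD of 0.11 between them. The mean log2 ratio of 0.39 (1.31-fold) was smaller than the SD of 0.40 for genes of this brightness, and 28.7% of genes in the dim group had a ratio as high or higher. For Tyro3 the difference between the clones was therefore within the error of single probe sets.

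Mertk, the receptor of macrophages that serves in uptake of apoptotic cells, was represented by 1422869_at alone. Its log2 signals of 3.88 in the control clone and 5.65 in the hPHD4 clone were both under the floor, by 2.21 and 0.69. Those positions, at percentiles 17.4 and 30.5 of the arrays, give no fold change. Expression of Mertk was not detectable above the floor in either clone, which does not show that the gene is silent.

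Since these receptors are well known from macrophages, the macrophage markers were read beside them. Of 13 on the array, 7 were above the floor in the control clone and 5 under hPHD4. Measured in both clones were 5 of the 13, against 7452 of the 12393 genes on the array. By its definition most probe sets of each array lie above the floor, so passing the floor does not by itself show that a marker is expressed. Ptprc, the pan-leukocyte phosphatase CD45, was under the floor on both arrays, as were Itgam, Tyrobp and C1qa. Csf1r, the receptor of a macrophage growth factor, was above it in both clones at linear signals of 236.6 and 187.7, and nearer the floor so were Cd68 (101.0 and 72.2), Lyz2 (108.0 and 79.4) and Adgre1 (84.9 in each). Summed over the markers, the linear signals were 970.8 and 1709. Fcer1g, an Fc receptor gamma chain, set that order, at 106.8 and 979.8; without it the sums over 12 markers were 864.0 and 729.0. The part of these markers in the ratios of the members was not tested.

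Carboxylation by the vitamin K cycle is needed for the Gla domains of both ligands. Of 6 genes of this machinery on the array, 5 were measured, and 0 passed 1.5-fold in either direction. Among all measured genes 8.94% passed 1.5-fold upward and 5.22% downward. In the bright group, which holds all 5 of these genes, 3.38% and 4.43% did. The median log2 ratio of the 5 was -0.01. Vkorc1, the vitamin K epoxide reductase that warfarin inhibits, had linear signals of 2124 and 2374, a log2 ratio of -0.16. Txndc12, an endoplasmic reticulum thioredoxin, was at -0.26. Ggcx, the carboxylase itself, was close to the floor, with linear signals of 87.2, above the floor, and 58.5, below it. Ggcx was given no ratio. With 5 genes measured and such low shares past 1.5-fold in their group, nothing is read from the count of 0.

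Among other Gla protein genes, 3 of 8 on the array were measured. Mgp, a matrix Gla protein that inhibits calcification, had linear signals of 182.9 and 876.2, or 4.79-fold lower under hPHD4. Prrg2, a transmembrane Gla protein, was 1.88-fold higher at 202.6 and 108.0. F2, encoding prothrombin, was at a log2 ratio of 0.12. The coagulation genes F7, F9, F10, Proc and Proz were under the floor in both clones. With 1 gene past 1.5-fold on each side of 3 measured, and Prrg2 in the dim group, no direction is read for these genes together.

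Further proteins have been proposed as TAM ligands. Lgals3, encoding galectin-3, a proposed ligand of Mertk, was bright in both clones, at linear signals of 3468 and 1511. Its log2 ratio of 1.20 (2.29-fold higher) compares with an SD of 0.28 for the bright group, where 0.725% of genes reached 2-fold higher. Tulp1, of the tubby family, passed the floor under hPHD4 but not in the control clone, at 147.3 against 11.9, and Tub was under it on both arrays.

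TAM receptors are cleaved from the cell surface by metalloproteases, and their soluble ectodomains can trap Gas6. The 4 measured genes of shedding and its control all had log2 ratios above 0, with a median of 0.31, and 0 reached 1.5-fold. Across all measured genes 53.6% were above 0, 8.94% reached 1.5-fold higher and 5.22% reached 1.5-fold lower. With 4 genes, nothing is read from these counts. Adam17, a sheddase of many receptors, was at 0.46, with its 3 probe sets from 0.27 to 0.67. Timp3, which inhibits it, was at 0.40, with 4 probe sets from 0.22 to 0.79.

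Signal transducers reported downstream of TAM kinases lay on both sides of 0. Of 34 on the array, 28 were measured, 12 above and 16 below 0, and the median log2 ratio was -0.01. At least 1.5-fold higher were 2 of them and as much lower was 1, against 8.94% and 5.22% of all measured genes. Plcg2, a phospholipase C, was 2.17-fold higher at linear signals of 185.8 and 85.4. Stat3, a transcription factor activated by cytokines, was 1.58-fold higher, although its probe sets differed, at log2 ratios of 0.13 and 1.20. Yes1, a Src family kinase, was 1.60-fold lower at 105.7 and 169.5. Plcg2, Stat3 and Yes1 all lie in the dim group, where 16.3% of genes passed 1.5-fold upward and 5.52% downward. In that group 3.5% reached 2-fold higher. Plcg2 was read by 1 probe set, and its control log2 signal of 6.42 was close to the floor of 6.08. The adaptor gene Grb2 and the GTPase gene Rac1, through which TAM signals reach survival pathways and the cytoskeleton, were both at -0.01, and the kinase gene Akt1 was at -0.32.

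**Figure D3:**
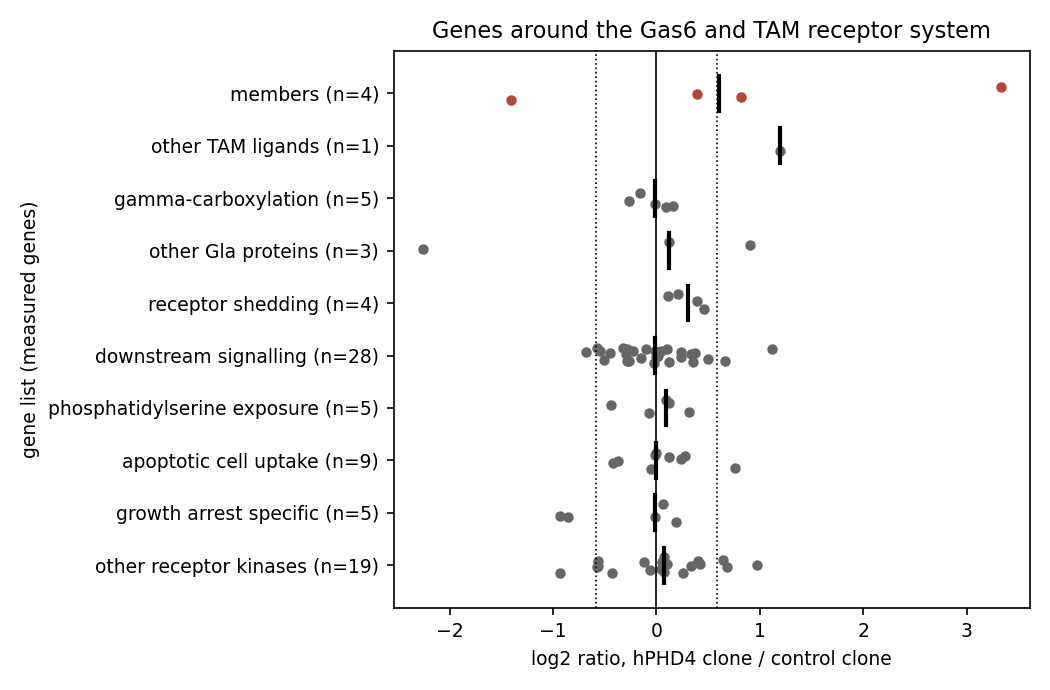
Log2 ratio, hPHD4 clone over control clone (x axis), of every measured gene in the lists around the TAM system (y axis, with the number measured); each point is a gene, spread vertically for legibility, black bars are list medians and dotted lines mark 1.5-fold. The members (red) span -1.40 to 3.33, while the 28 downstream genes centre on -0.01 and the 5 carboxylation genes on the same value.

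Genes that set phosphatidylserine exposure, the signal that Gas6 and protein S bind, were also read. Of 8 on the array, 5 were measured, with a median log2 ratio of 0.09. Past 1.5-fold were 0 of them, against 8.94% higher and 5.22% lower of all measured genes, so nothing is read from that count. Tmem30a, the chaperone of flippases, was at -0.43, with its 3 probe sets between -0.87 and -0.10. Plscr1, a phospholipid scramblase family gene, was at 0.32. Other bridging molecules and receptors of apoptotic cell uptake gave 9 measured genes of 21 on the array and a median of -0.01. Mfge8, which bridges phosphatidylserine to integrins much as Gas6 bridges it to TAM receptors, was at linear signals of 527.3 and 529.1. The integrin genes of that route, Itgav and Itgb5, were at log2 ratios of -0.01 and -0.05. Stab2, a scavenger receptor that recognises phosphatidylserine, was 1.70-fold higher, but its control signal lay at the floor.

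Of the other genes described as growth arrest specific, 5 of 7 on the array were measured, and Gas7 was under the floor on both arrays. Gas1, a cell surface protein that modulates Hedgehog signalling, was 1.81-fold lower in the hPHD4 clone, at linear signals of 444.2 and 805.1. Pdgfra, a receptor of platelet-derived growth factors, was 1.91-fold lower at 239.0 and 457.1. These were the 2 of 5 measured genes of the list that passed 1.5-fold, and 0 were as much higher, against 5.22% and 8.94% of all measured genes. Gas5, a noncoding RNA gene, was at a log2 ratio of 0.19, Gas8 at 0.06 and Pmp22 at -0.02. Gas2, which encodes a cytoskeletal protein, was above the floor in the control clone alone, at 136.4 against 51.3. None of the 5 measured genes had a ratio near that of Gas6, which was chosen with its ratio known. With so few measured, nothing is read for the list as a whole.

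Among 19 other receptor tyrosine kinase genes measured, of 47 on the array, log2 ratios ran from -0.94 to 0.97, with a median of 0.07. Of the 19, Fgfr4, at 0.97, was the single one with a ratio above that of Axl, and 5 were above that of Tyro3. A further 10 genes had a probe set above the floor in 1 clone alone. They were given no ratio and stand outside this ranking, so some of them may differ as much as Axl. Ntrk2 and Erbb3 were at 0.68 and 0.64. Past 1.5-fold were 3 of the 19 on the higher side and 1, Pdgfra, on the lower side, against 8.94% and 5.22% of all measured genes, and in the dim group, which holds Fgfr4 and Ntrk2, 16.3% of genes lay as far on the higher side.

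The genes whose pair of signals most resembled that of Gas6 were found by the distance between points given by the log2 signals of the 2 arrays. Nearest was Ctsh, the cathepsin H gene, at a distance of 0.61, with linear signals of 1903 and 138.8. Pnpla2, encoding a triglyceride lipase, followed at 0.67, and the carbonic anhydrase gene Car14 at 0.69. Lmcd1 and Tuba4a were farther away, at 1.06 and 1.13, with log2 ratios of 1.94 (3.84-fold) and 1.98 (3.94-fold). With only 2 arrays, such likeness means similar brightness and ratio and nothing more.

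Genes beside each ligand gene on its chromosome were read for comparison. Of the 10 genes on the array nearest to Gas6 on chromosome 8, 5 on each side, 6 were measured, with log2 ratios from -0.40 to 0.78 and a median of 0.12. The highest was that of Rasa3, a GTPase-activating protein gene, at linear signals of 2122 and 1233. The other measured neighbours were Grtp1 at 0.39, Cdc16 at 0.17, Coprs at 0.06, Tfdp1 at -0.11 and Tmco3 at -0.40. Around Pros1 on chromosome 16, 6 of 10 neighbours were measured, from -0.34 to 0.07, with a median of -0.15. The receptor kinase gene Epha3, next to Pros1 on the array, was at 0.07. Neither ligand ratio was matched by a measured neighbour. Because the ligands were chosen with their ratios known, nothing is read from that.

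**Figure D4:**
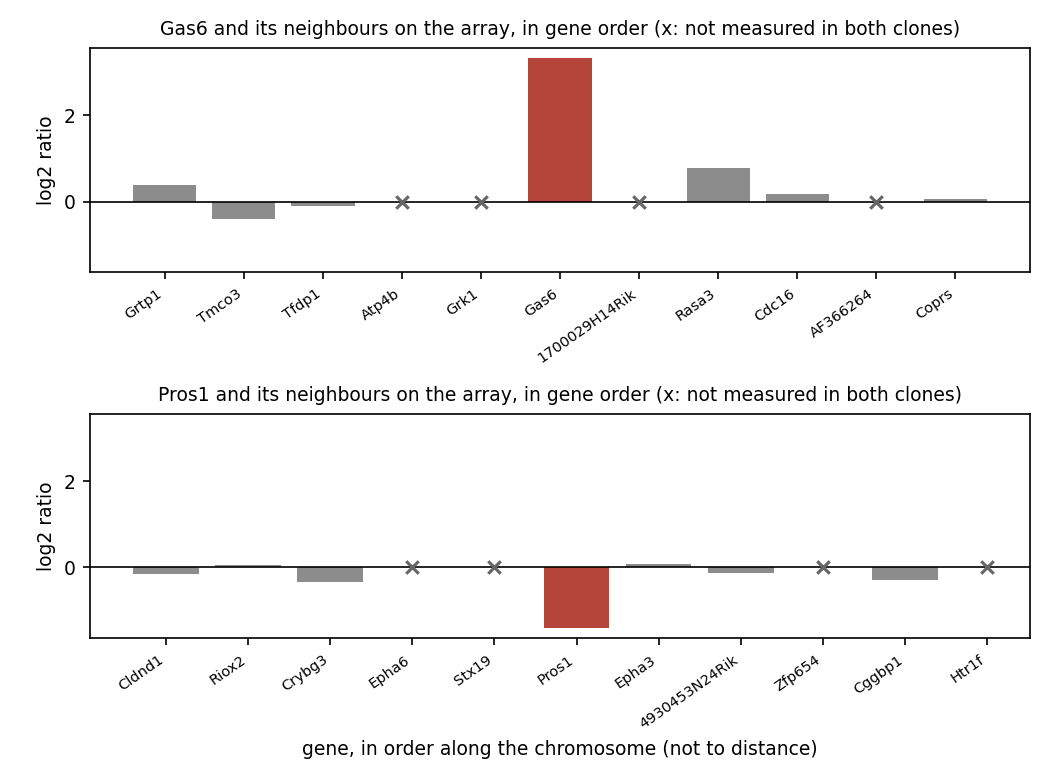
Log2 ratio, hPHD4 clone over control clone (y axis), of Gas6 (top) and Pros1 (bottom) in red and of the 5 nearest genes on the array on either side in grey, in order along the chromosome (x axis); crosses mark genes not measured in both clones. Gas6 at 3.33 stands beside neighbours of at most 0.78, and Pros1 at -1.40 beside neighbours no lower than -0.34.

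Gas6 and Pros1 each have 1 probe set, above both floors, so 5 of the 9 alternatives that gave them a value could not move it; the scalings and the subtraction of chromosome medians could. Over the 9, the log2 ratio of Gas6 ran from 3.30 to 3.33 and that of Pros1 from -1.44 to -1.37. Axl ran from 0.41 to 0.82, lowest when its dim probe set was kept and raised to a common floor. Tyro3 ran from 0.24 to 0.39. With the floor at the 60th percentile no member was measured in both clones, and bounds took the place of ratios. The bounds were at least 9.41-fold higher for Gas6, at least 1.33-fold higher for Axl and at least 2.62-fold lower for Pros1.

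**Figure D5:**
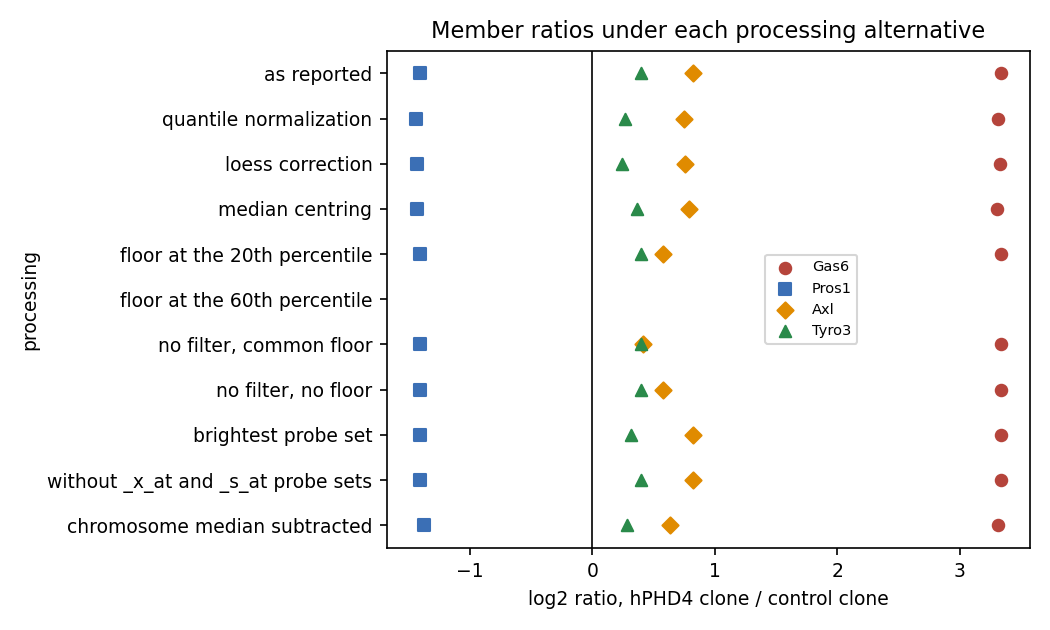
Log2 ratio, hPHD4 clone over control clone (x axis), of the 4 measured members as reported and under each processing alternative (y axis). Each member stays on its side of 0, from 3.30 to 3.33 for Gas6 and from -1.44 to -1.37 for Pros1, and the line for the floor at the 60th percentile is empty because none was measured in both clones.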

How the data were processed

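Expression was read from 2 arrays, 1 per clone, made from 5 µg of total RNA each per the labels' protocols. The values deposited by the authors are log2 signals, 1 for every probe set. The submitters' processing notes name MAS5, with its version and options not given in the sources used here. That scale was settled from the values: as powers of 2, their means after a 2% trim at each end were 500.2 on both arrays. Of 22690 probe sets, 20380 had 1 gene symbol in the platform annotation, 691 several and 1555 non-control ones none; 20364 were found by gene number in a GRCm38.p6 gene table, which gave chromosomes and gene order.

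No further scaling was applied. A gene's log2 ratio is the mean over its probe sets above both floors. The members and gene lists were chosen with earlier results of these data known. From each list the text names genes at least 1.5-fold apart, at most 4 per direction, or otherwise the 2 with the largest ratios, and for Gas6 the 5 genes most alike and 5 neighbours per side; further list members, such as Mfge8, Rac1 and Gas5, were named after their values were seen. No test was possible with 1 array per clone, and precision is limited by the number of arrays. The alternatives were other scalings, floors, filters, probe set choices and fold thresholds. The steps were tested on simulated data. Python 3.11.15, pandas 2.3.3 and numpy 2.4.6 were used.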

Additional observations from a re-analysis of the deposited data

How the results depend on the processing

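Gas6, Pros1, Axl and Tyro3 kept the sign of their log2 ratios under all 9 alternatives that gave a value, 5 of which could not move the single probe sets of Gas6 and Pros1. Of these, the ratio of Axl moved by more than the SD of its brightness group once, to 0.41 with dim signals raised to a common floor, which takes in its dim probe set. Mertk, not measured otherwise, was then at 0.00, both signals being set to the floor, and at 1.77 with no filter and no floor; at the 20th percentile it passed the floor under hPHD4 only. The 60th percentile gave no member a ratio.

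Counts of genes at least 2-fold higher and lower, 141 and 73, became 605 and 188 when the floor was put at the 20th percentile, 45 and 34 at the 60th, and 1771 and 877 with no filter and no floor. At 1.5-fold they were 666 and 389, and at 3-fold 21 and 19. The share of higher genes, 65.9%, was 54.1% after quantile normalization (100 and 85) and 52.1% after loess correction (99 and 91). Medians of 6 of the 9 lists took the opposite sign under at least 1 alternative, so no direction is read from them. The median of the other Gla protein genes, 0.12, was -0.12 after loess correction, that of phosphatidylserine exposure, 0.09, was -0.16 under a floor at the 60th percentile, and that of the growth arrest list, -0.02, was then -0.44 over 4 genes.

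No paired analysis was possible because each clone had 1 array. Signals close to the floor limit what can be said of Mertk, Tyro3 and the dim probe set of Axl.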

Other observations

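The receptor genes were also read beside their neighbours on the chromosome. Around Axl, 5 of 10 neighbours on the array were measured, all on 1 side of it, and their log2 ratios ran from 0.10 to 0.33 with a median of 0.31. Tgfb1, the gene of the growth factor TGF-beta 1, was at 0.33, with linear signals of 577.3 and 458.3, the hPHD4 clone first, and Hnrnpul1, next to Axl, was at 0.31. The cytochrome P450 genes on the other side, Cyp2s1 and several of the Cyp2b group, were not measured in both clones. Around Tyro3, 6 measured neighbours ran from 0.02 to 0.35. Ltk, another receptor kinase gene close to it, was under the floor on both arrays. Around Mertk, 6 measured neighbours ran from -0.39 to 0.55, and the highest was Bcl2l11, encoding the pro-apoptotic protein BIM, at linear signals of 206.7 and 141.2.

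Of the other receptor kinase genes, 10 had a probe set above the floor in 1 clone alone, and 1 of them is given here. Ephb3, an ephrin receptor gene, was at a linear signal of 20.8 under hPHD4 and 131.3 in the control clone. Outside that group, Src, a kinase gene among the downstream signal transducers, passed the floor under hPHD4 only. It did so on both of its probe sets, at 113.9 and 137.0 against 65.0 and 61.9 in the control clone. The floors were at linear signals of 81.1 for the hPHD4 clone and 67.8 for the control clone.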
